A study of Mus musculus with 60 samples.

Results

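Caspases and Nlrp3 were followed across brain regions, tumor status and time of day. The 7 genes are Casp1, Casp2, Casp4, Casp6, Casp8, Casp9 and Nlrp3, taken by gene symbol from the 770 genes of the nanoString nCounter Mouse Neuroinflammation Panel. The rule names symbols and sets no threshold on values, but it was made with earlier results of these data known. All 7 had a value in every sample analysed, and no filter on low values was applied. RNA came from the hippocampus, hypothalamus and brain stem of 20 female Balb/C mice that were 13 weeks old at collection. Tumor-bearing mice had received 67NR cells, a transplanted non-metastatic mammary carcinoma line, in the inguinal mammary glands, and vehicle injected mice had received culture medium (DMEM) alone. Brains were taken 25 days after injection at mid-dark (ZT19, where ZT counts hours after lights on) or mid-light (ZT7), from 5 mice in each of the 4 groups, and all mice were perfused with saline first. The 3 regions came from the same mice. Values of 56 of the 60 samples were analysed, since the labels set 4 aside as outliers in the raw data. As a result, the hypothalamus had 3 vehicle injected mice at mid-dark and 4 at mid-light, the brain stem had 4 vehicle injected mice at mid-dark, and every other group had 5 mice.

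Caspases are proteases that are made as inactive precursors and cut one another and other proteins once activated. Nlrp3 is a cytosolic danger sensor of microglia and other myeloid cells that assembles the inflammasome, the complex in which Casp1 is activated to mature interleukin-1 beta, and Casp4 (also called caspase-11 in mice) answers cytosolic bacterial lipopolysaccharide. Casp8 starts apoptosis below death receptors, Casp9 starts it below mitochondrial cytochrome c release, Casp2 responds to DNA damage and other stress, and Casp6 is an executioner that cuts nuclear lamins and is known for its part in axon degeneration. The panel measures the RNA of these genes, not the precursors or their cleavage.

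Casp4 and Nlrp3 are described at most length in the tumor comparisons, in which no member was called, and Casp1, which the Nlrp3 inflammasome activates, is the neighbour of Casp4 on chromosome 9, so these 3 promoters are shown. The sequences are the 250 bases before the start of the gene in RefSeq's GRCm38.p6 annotation, on the plus strand, 5′ to 3′, with the matches to a searched motif in capitals. Casp1 lies at chr9:5298267-5298516, Casp4 at chr9:5308599-5308848 and Nlrp3 at chr11:59541319-59541568.
Casp1: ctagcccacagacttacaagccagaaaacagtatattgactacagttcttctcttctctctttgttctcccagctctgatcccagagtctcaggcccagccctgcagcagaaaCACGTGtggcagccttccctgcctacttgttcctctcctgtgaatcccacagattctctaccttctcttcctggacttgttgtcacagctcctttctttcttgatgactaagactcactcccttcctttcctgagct
Casp4: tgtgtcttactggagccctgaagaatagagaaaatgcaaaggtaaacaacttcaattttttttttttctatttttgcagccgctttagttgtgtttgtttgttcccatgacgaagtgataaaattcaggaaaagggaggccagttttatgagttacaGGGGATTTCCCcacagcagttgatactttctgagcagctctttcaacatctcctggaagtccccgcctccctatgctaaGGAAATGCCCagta
Nlrp3: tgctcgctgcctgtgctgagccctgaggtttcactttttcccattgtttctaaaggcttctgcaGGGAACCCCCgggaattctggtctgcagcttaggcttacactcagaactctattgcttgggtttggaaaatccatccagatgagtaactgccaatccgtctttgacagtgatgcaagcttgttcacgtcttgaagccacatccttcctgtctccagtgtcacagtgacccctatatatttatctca
The motifs were searched on both strands, and overlapping matches were counted separately. The capitals in the Casp1 promoter are an E-box (CACGTG) at position -137 from the start, a motif that 6.02% of 32851 mouse promoters of this length held. Casp4 held 3 matches to an NF-kB pattern (GGG, any 2 bases, T, any 2 bases, CC), of which those at -93 and -92 overlap and the other is at -14. Nlrp3 held 1 match to the same pattern at -186, and 15.9% of all promoters held at least 1. Casp4 and Nlrp3 have 2 starts each in the RefSeq table, and the upstream one is shown. Casp9 held 4 GC boxes (GGGCGG), and Casp2 and Casp6 held 1 each, with 32.7% of all promoters holding at least 1. None of the motifs was found in the window of Casp8. No letters of an interferon-stimulated element (GAAA, any 2 bases, GAAA), a gamma-activated site (TTCNNNGAA), a D-box (TTATGNAA) or an AP-1 site (TGANTCA) were found in the windows of the 7 genes, and 2.98%, 7.02%, 3.07% and 6.75% of all promoters held these. These matches describe the letters of the windows only.

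Values are on the log2 scale, on which a difference of 1 is a 2-fold difference, and the depth of each sample is unknown. Probes differ in their efficiency, so no order between genes is drawn. By the mean signal of their probes, Casp4 and Nlrp3 were at percentiles 13.6 and 15.7 of the panel, and the other 5 members were between percentiles 30.3 and 52.9. Marker genes followed the labelled regions. All 4 markers of forebrain glutamatergic neurons on the panel were higher in the hippocampus than in the hypothalamus and the brain stem, with summed levels (linear scale) of 17757 to 26868 against 1790 to 2791 and 1698 to 4178. The 6 oligodendrocyte markers were all higher in the brain stem than in either other region. The choroid plexus gene Ttr varied between mice of a region, from 41 to 26859 in the hippocampus and from 90 to 13928 in the brain stem, and was 20 to 41 in the hypothalamus. No marker of any list was at the panel's lowest value in every sample of a group, and single samples at that value were not counted. RNA purity (the 260/280 ratio) was 1.72 or above in every group with values except in the brain stem of tumor-bearing mice, where it was 1.34 to 1.99 at mid-dark, with 3 of 5 samples under 1.8, and 1.51 to 1.97 at mid-light.

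The regions differed in most of the 7 genes. Between each pair of regions, 5 of the 7 members passed an adjusted p of 0.05 in limma's model over all samples with the mouse as a block. Such differences were general on this panel, with 71.7% of all genes called between hippocampus and hypothalamus, 76.6% between hippocampus and brain stem and 66.5% between hypothalamus and brain stem, so the members' share was near the background. The median size of a member's difference was 0.19, 0.34 and 0.25 in these 3 comparisons, beside 0.26, 0.33 and 0.23 over all genes. Fewer cells of a type and less RNA per cell cannot be told apart in tissue RNA.

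**Figure D1:**
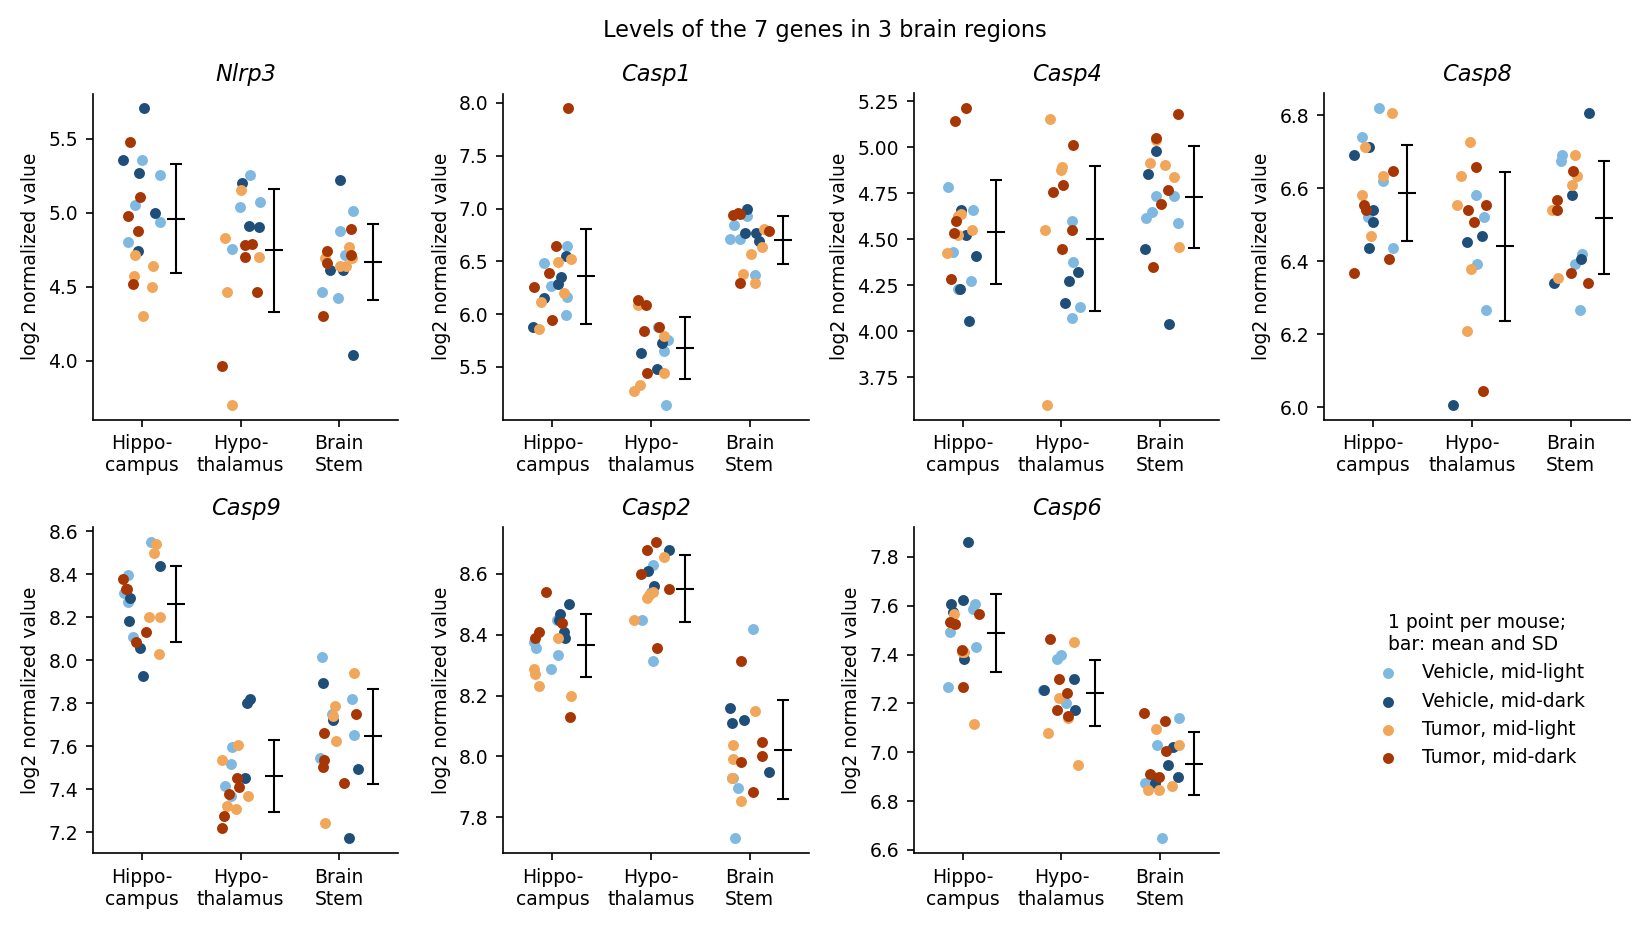
Log2 normalized values (vertical axes, a separate scale for each gene) of the 7 genes in the 3 brain regions, with 1 point per mouse coloured by tumor status and phase and a bar for the mean and SD of the region. Casp9 in the hippocampus (7.93 to 8.55) does not overlap the hypothalamus (7.22 to 7.82). Casp1 in the hypothalamus (5.14 to 6.13) does not overlap the brain stem (6.29 to 6.99). Every other pair of regions overlaps in each of the 7 genes.

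Among the inflammatory members, Casp1 had the widest span over regions. Its log2 level was 5.86 at the lowest, 6.27 at the median and 7.95 at the highest over the 20 hippocampus samples. It ran from 5.14 through 5.73 to 6.13 in the 17 hypothalamus samples and from 6.29 through 6.77 to 6.99 in the 19 brain stem samples. No hypothalamus sample reached the lowest brain stem sample, and within mice Casp1 was lower in the hypothalamus than in the brain stem in 16 of 16. The log2 difference was -1.04 ± 0.11 (SE, adjusted p = 1.05e-11), a 2.05-fold lower level in the hypothalamus. The hippocampus lay between them, 0.68 ± 0.11 above the hypothalamus (adjusted p = 2.09e-07, higher in 15 of 17 mice) and 0.35 below the brain stem (log2 difference -0.35 ± 0.10, adjusted p = 0.00192, lower in 14 of 19 mice). The highest hippocampus value belonged to mouse 7, tumor-bearing at mid-dark.

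Casp4, the neighbouring gene, spanned less. Its level was 4.05 to 5.21 with a median of 4.53 in the hippocampus, 3.60 to 5.16 with a median of 4.55 in the hypothalamus, and 4.04 to 5.18 with a median of 4.73 in the brain stem. All 3 ranges overlapped. The only call was hypothalamus against brain stem, at -0.25 ± 0.10 (adjusted p = 0.0211, lower in 13 of 16 mice). It was lost with the 260/280 ratio as a covariate (-0.19, adjusted p = 0.0961), with only samples of a ratio of at least 1.8 (-0.17, adjusted p = 0.170), without mouse 28 (-0.23, adjusted p = 0.0610) and without mouse 29 (-0.18, adjusted p = 0.0588). The hippocampus minus brain stem difference of Casp4 was -0.18 (95% confidence interval -0.36 to 0.0049, adjusted p = 0.0717), and it was called without mouse 12 (-0.24, adjusted p = 0.0150) and without mouse 13 (-0.20, adjusted p = 0.0409).

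Nlrp3 was 4.31 to 5.71 with a median of 4.96 in the hippocampus, 3.70 to 5.25 with a median of 4.79 in the hypothalamus, and 4.04 to 5.22 with a median of 4.69 in the brain stem. Its order was thus not that of Casp1. It was higher in the hippocampus than in the brain stem by 0.29 ± 0.09 (adjusted p = 0.00347, 15 of 19 mice), and by 0.49 (adjusted p = 0.00172) in vehicle injected mice alone. The hypothalamus could not be placed, with 0.17 (interval -0.02 to 0.36, adjusted p = 0.101) below the hippocampus and 0.12 (interval -0.07 to 0.32, adjusted p = 0.267) above the brain stem. The 6 microglia markers on the panel summed to 4609 to 5716 in the hippocampus, 3937 to 4518 in the hypothalamus and 3233 to 4525 in the brain stem, and 5 of the 6 were called higher, and 1 lower, in the hippocampus than in the brain stem. Their part in the Nlrp3 difference was not tested.

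Of the initiators, Casp9 showed the clearest regional pattern. In the hippocampus its level was 7.93 at the lowest, 8.28 at the median and 8.55 at the highest, against 7.22, 7.42 and 7.82 in the hypothalamus and 7.17, 7.66 and 8.02 in the brain stem. Every mouse had more Casp9 in the hippocampus than in the hypothalamus (17 of 17) and in the brain stem (19 of 19). The differences were 0.78 ± 0.06 (adjusted p = 2.71e-17, 1.72-fold) and 0.62 ± 0.05 (adjusted p = 1.29e-14, 1.54-fold). The hypothalamus was below the brain stem by less, with a log2 difference of -0.16 ± 0.06 (adjusted p = 0.0116), and in vehicle injected mice alone that call was lost (-0.09, adjusted p = 0.455). All 4 neuron markers on the panel were also higher in the hippocampus than in the hypothalamus. Against the brain stem, 3 of them were called higher and 1 lower in the hippocampus. Their part in the Casp9 differences was not tested.

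Casp2 ran in another order, with the hypothalamus highest. Its level was 8.31 to 8.71 with a median of 8.55 in the hypothalamus, 8.13 to 8.54 with a median of 8.39 in the hippocampus and 7.73 to 8.42 with a median of 7.99 in the brain stem. It was higher in the hypothalamus than in the brain stem by 0.53 ± 0.04 (adjusted p = 1.73e-15, 16 of 16 mice). It was higher in the hippocampus than in the brain stem by 0.34 ± 0.04 (adjusted p = 1.30e-10, 18 of 19 mice). The hippocampus minus hypothalamus difference was -0.19 ± 0.04 (adjusted p = 7.40e-05, lower in 15 of 17 mice), or -0.15 (adjusted p = 0.0553) in vehicle injected mice alone. Casp8 varied less over regions than Casp2 and Casp9, at 6.37 to 6.82, 6.01 to 6.73 and 6.27 to 6.81 in hippocampus, hypothalamus and brain stem. Its only call was hippocampus over hypothalamus by 0.16 ± 0.05 (adjusted p = 0.00831), with 8 mice higher and 7 lower of 17, and it was lost without mouse 28 (0.11, adjusted p = 0.0701).

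Casp6, the executioner, fell in steps from hippocampus to hypothalamus to brain stem. The medians were 7.53, 7.24 and 6.91, with ranges of 7.12 to 7.86, 6.95 to 7.46 and 6.65 to 7.16. Each step was called, with 0.24 ± 0.04 from hippocampus to hypothalamus (adjusted p = 3.30e-06, 15 of 17 mice) and 0.29 ± 0.05 from hypothalamus to brain stem (adjusted p = 1.32e-07, 15 of 16 mice). Over both steps, all 19 mice had more Casp6 in the hippocampus than in the brain stem, by 0.54 ± 0.04 (adjusted p = 3.79e-16, 1.45-fold).

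The second question was whether a mammary tumor outside the brain went with other levels of these genes in either phase. None of the 7 members passed the adjusted test in any of the 6 comparisons of tumor-bearing with vehicle injected mice by limma. Few genes of the panel did, with 0.13% at both times in the hippocampus, 0% at both times in the hypothalamus, and 0.26% (mid-dark) and 0.78% (mid-light) in the brain stem. By the unadjusted p of the same models under 0.05, the study's first filter, 3 of the 42 member tests passed (7.14%), beside 6% over all genes. These were Casp4 in the hippocampus at mid-dark, Nlrp3 in the hippocampus at mid-light and Casp9 in the hypothalamus at mid-dark. Groups did not overlap in 3 of the 42 tests, beside 1.88% of all gene tests. These were Nlrp3 in the hippocampus at mid-light, and Casp4 and Nlrp3 in the hypothalamus at mid-dark.

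**Figure D2:**
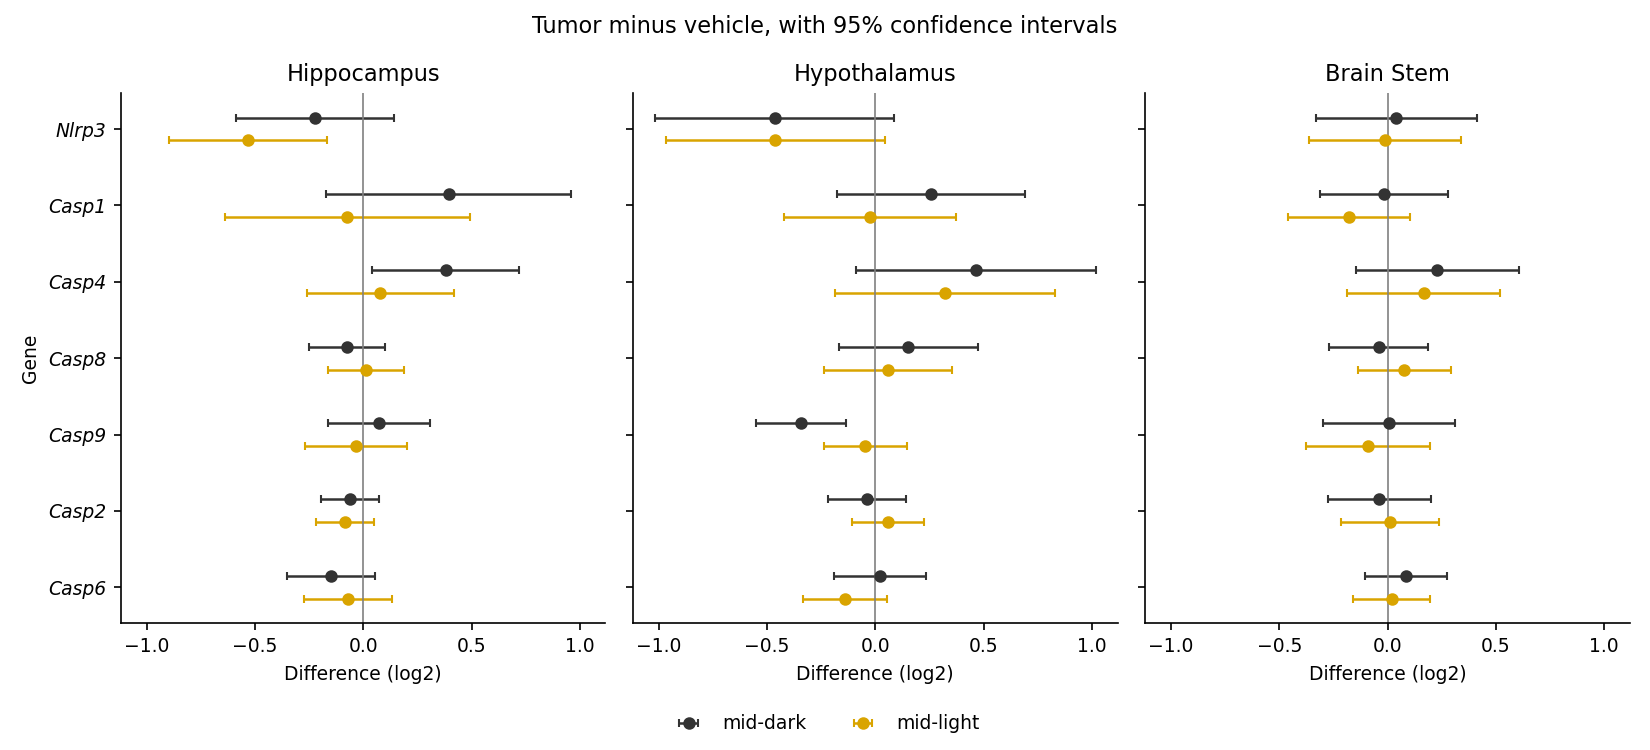
Tumor minus vehicle differences (log2, horizontal axis) of the 7 genes in each region at mid-dark and mid-light, with 95% confidence intervals from limma. Casp4 lies right of 0 in all 6 comparisons (0.08 to 0.46), though the brain stem mid-dark value turned to -0.058 with only samples of a 260/280 ratio of at least 1.8, Nlrp3 lies left of 0 in the hippocampus and hypothalamus (-0.53 to -0.22), and most intervals cross 0.

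Nlrp3 in the hippocampus at mid-light was 4.50, 4.31, 4.72, 4.64 and 4.58 in the tumor-bearing mice. The vehicle injected mice had 5.36, 4.94, 4.80, 5.25 and 5.05. Every tumor-bearing mouse was below every vehicle injected mouse. The difference was -0.53 (95% confidence interval -0.90 to -0.17), with an adjusted p of 0.419 over the panel and an exact permutation p of 0.00794, the smallest that 5 mice against 5 allow in a two-sided test. With a pseudocount of 16, which shrinks differences at low values, it was -0.34 (adjusted p = 0.419). Some cell type sums differed in the same samples. That of the 6 microglia markers was 4798 to 4977 in tumor-bearing and 5075 to 5641 in vehicle injected mice. That of the 6 endothelial markers was 2035 to 2231 and 2365 to 2452. The 6 blood leukocyte markers summed to 138 to 146 and 144 to 170. The astrocyte, oligodendrocyte and neuron sums overlapped as well. No marker was called, and 3 microglia, 1 endothelial and 1 astrocyte marker were lower with an unadjusted p under 0.05. The part of these cell types in the Nlrp3 difference was not tested. At mid-dark the Nlrp3 difference in the hippocampus was -0.22 (interval -0.59 to 0.14), with tumor-bearing mice at 5.10, 4.98, 4.88, 5.48 and 4.52 and vehicle injected mice at 5.27, 5.00, 4.75, 5.71 and 5.36.

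In the hypothalamus at mid-dark, Nlrp3 was 4.78, 4.79, 4.70, 4.47 and 3.96 in tumor-bearing mice and 4.90, 4.91 and 5.20 in the 3 vehicle injected mice. These groups did not overlap, though only narrowly so. The difference was -0.46 (interval -1.02 to 0.09, adjusted p = 0.980, exact permutation p = 0.0714), or -0.29 with the pseudocount. The summed level of the 5 astrocyte markers was also only narrowly apart, at 27248 to 30608 in tumor-bearing and 25350 to 27181 in vehicle injected mice. Of these 5 markers, 1 had an unadjusted p under 0.05 and none was called. Their part in the Nlrp3, Casp4 and Casp9 differences there was not tested. At mid-light the Nlrp3 difference was -0.46 (interval -0.97 to 0.05), with tumor-bearing mice from 3.70 to 5.16 and vehicle injected mice from 4.76 to 5.25. In the brain stem the Nlrp3 difference was 0.04 (interval -0.33 to 0.41) for the mid-dark and -0.01 (interval -0.36 to 0.34) for the mid-light groups. The difference was thus negative in 5 of 6 comparisons, and the regions share mice.

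Casp4 in the hippocampus at mid-dark was 4.29, 4.54, 4.60, 5.14 and 5.21 in tumor-bearing mice. The vehicle injected mice had 4.23, 4.05, 4.66, 4.52 and 4.41. The 2 highest tumor-bearing mice, mice 19 and 23, stood above all vehicle injected mice, and the other 3 were among them. The difference was 0.38 (interval 0.04 to 0.72, adjusted p = 0.634), or 0.23 with the pseudocount. The 6 blood leukocyte markers summed to 134.7 to 160.6 in these tumor-bearing and 161.3 to 192.2 in these vehicle injected mice. These low sums did not overlap, though only narrowly so, and none of the 6 markers had an unadjusted p under 0.05. Their part in the Casp4 difference was not tested. At mid-light it was 0.08 (interval -0.26 to 0.42), with 4.42 to 4.64 in tumor-bearing and 4.23 to 4.78 in vehicle injected mice.

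In the hypothalamus at mid-dark, Casp4 was 4.45, 5.01, 4.76, 4.55 and 4.79 in tumor-bearing mice and 4.15, 4.32 and 4.27 in the 3 vehicle injected mice. All tumor-bearing mice were above the vehicle injected ones. The difference was 0.46 (interval -0.09 to 1.02, adjusted p = 0.980, exact permutation p = 0.0357), or 0.27 with the pseudocount. At mid-light the tumor-bearing mice had 4.89, 4.55, 4.88, 5.16 and 3.60, where the lowest value is that of mouse 29, and the vehicle injected mice had 4.13, 4.07, 4.38 and 4.60. That difference was 0.32 (interval -0.19 to 0.83). In the brain stem the Casp4 difference was 0.23 (interval -0.15 to 0.61) for the mid-dark and 0.17 (interval -0.19 to 0.52) for the mid-light groups. The groups overlapped. The mid-dark value was 0.09 with the 260/280 ratio as a covariate, -0.058 with only samples of a ratio of at least 1.8, and 0.05 without mouse 12, and the mid-light value was 0.16 and 0.14 with the covariate and the purity filter. The Casp4 difference was thus positive in 6 of 6 comparisons, none of them called, and in the brain stem at mid-dark it turned negative with the purity filter. The 6 blood leukocyte markers on the panel had low summed levels of 116 to 192 in all groups. In the hypothalamus at mid-dark they were 137 to 162 in tumor-bearing and 127 to 169 in vehicle injected mice, and the microglia markers were at 3937 to 4390 and 4001 to 4268. Both lists overlapped there, while the astrocyte sums were narrowly apart.

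**Figure D3:**
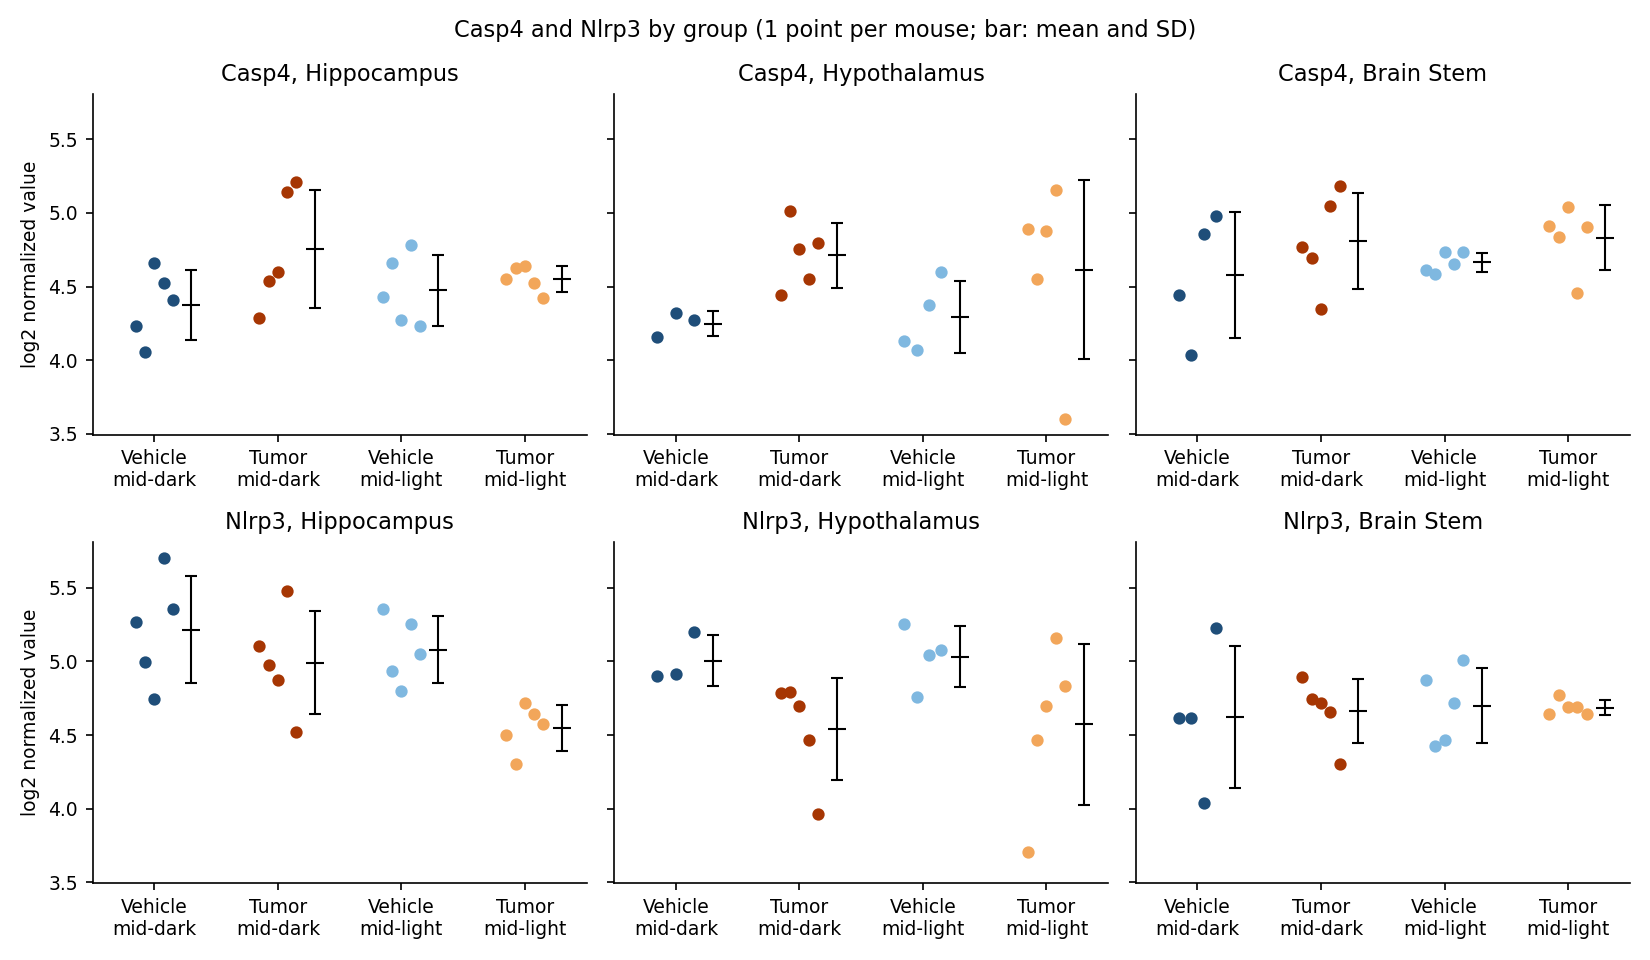
Log2 normalized values of Casp4 (top) and Nlrp3 (bottom) in the 3 regions, with 1 point per mouse in the 4 groups and a bar for the mean and SD of each group. Nlrp3 in the hippocampus at mid-light is 4.31 to 4.72 in tumor-bearing and 4.80 to 5.36 in vehicle injected mice, and the tumor-bearing group of Casp4 in the hypothalamus at mid-light has 1 mouse at 3.60 below the other 4.

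With the times of day averaged, a comparison added after the data were seen, the tumor minus vehicle difference of Nlrp3 was -0.38 in the hippocampus (interval -0.64 to -0.12, adjusted p = 0.453), -0.46 in the hypothalamus (interval -0.84 to -0.09, adjusted p = 0.403) and 0.01 in the brain stem (interval -0.24 to 0.27, adjusted p = 0.991). That of Casp4 was 0.23, 0.39 and 0.20 (adjusted p = 0.784, 0.603 and 0.888). The brain stem value of Casp4 was 0.12 with the 260/280 ratio as a covariate, 0.039 with only samples of a ratio of at least 1.8, and 0.11 without mouse 12. The tumor minus vehicle difference of Casp9 was 0.02, -0.20 and -0.04 in hippocampus, hypothalamus and brain stem. In the hypothalamus its interval was -0.34 to -0.05 (adjusted p = 0.365). There 2 of the 7 members, Casp9 and Nlrp3, had an unadjusted p under 0.05, beside 56 of 770 genes. In the hippocampus Nlrp3 alone did, beside 50 of 769 genes. The panel's called share was 0.52%, 0.26% and 1.04% in these comparisons. Over all 3 regions and both times, the tumor minus vehicle difference was 0.27 for Casp4 (interval 0.09 to 0.46, adjusted p = 0.125) and -0.27 for Nlrp3 (interval -0.46 to -0.09, adjusted p = 0.124), or 0.17 and -0.17 with the pseudocount. No member was called there, beside 2.34% of all genes, and 2 of the 7, Casp4 and Nlrp3, had an unadjusted p under 0.05, beside 9.35%. Casp4 depended on mouse 29: without it, Casp4 was called in the comparison over the 3 regions (0.32, adjusted p = 0.0185) and in the hypothalamus with times averaged (0.52, adjusted p = 0.0496).

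Whether the tumor difference itself differed between regions was tested with times averaged, and no gene of the panel was called by limma in any of the 3 pairs (0%), with 41, 20 and 17 genes of 770 at an unadjusted p under 0.05 for hippocampus minus hypothalamus, hippocampus minus brain stem and hypothalamus minus brain stem. For Nlrp3 the hippocampus minus brain stem value was -0.40 (interval -0.76 to -0.03, adjusted p = 0.9996), or -0.24 without mouse 28, and the hypothalamus minus brain stem value was -0.48 (interval -0.87 to -0.09, adjusted p = 0.999). Both had an unadjusted p under 0.05. For Casp4 the 3 values were between -0.16 and 0.19, with intervals that all include 0.

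Casp9 in the hypothalamus at mid-dark was 7.22, 7.28, 7.38, 7.45 and 7.41 in tumor-bearing mice. The 3 vehicle injected mice had 7.82, 7.80 and 7.45. Mice 4 and 8 of the vehicle group stood above all tumor-bearing mice, and mouse 28 was level with the highest of them. The difference was -0.34 (interval -0.55 to -0.14, adjusted p = 0.575, exact permutation p = 0.0357). At mid-light the tumor-bearing mice had 7.31 to 7.61 and the vehicle injected mice 7.37 to 7.60, a difference of -0.05 (interval -0.24 to 0.14). The interaction of tumor and time of day was -0.30 (interval -0.58 to -0.02), with an unadjusted p under 0.05 and an adjusted p of 1. Outside the hypothalamus, the mid-dark and mid-light differences of Casp9 were 0.07 and -0.03 in the hippocampus and 0.01 and -0.09 in the brain stem.

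Casp1 differed between tumor-bearing and vehicle injected mice by -0.18 to 0.39. The largest of these, in the hippocampus at mid-dark (interval -0.17 to 0.96), rested on 1 mouse. Tumor-bearing mice had 5.94, 7.95, 6.39, 6.65 and 6.26, and vehicle injected mice had 5.87, 6.28, 6.36, 6.55 and 6.15. Mouse 7, at 7.95, stood far above all others, mouse 19, at 6.65, just above the highest vehicle injected mouse, and the other 3 among them. Without mouse 7 the difference was 0.07 (adjusted p = 0.998). In the same sample Casp1 stood 1.64 above its group's mean, the second largest excess of the panel there, while in mouse 7 Casp1 was 5.84 in the hypothalamus and 6.79 in the brain stem, within the range of the other mice of its group. Casp2 (-0.09 to 0.06), Casp6 (-0.15 to 0.09) and Casp8 (-0.08 to 0.15) had tumor differences of both signs, and none had an unadjusted p under 0.05.

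The third question was the time of day. No member was called between mid-dark and mid-light in any of the 6 comparisons by limma, and 1 of the 42 member tests (2.38%) had an unadjusted p under 0.05, beside 10.9% of all gene tests. The called share of the panel was 2.34% in the hippocampus of vehicle injected and 1.04% in that of tumor-bearing mice, 0.26% and 1.04% in the hypothalamus, and 1.3% and 0.78% in the brain stem. No member had groups that did not overlap, beside 4.11% of all gene tests.

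**Figure D4:**
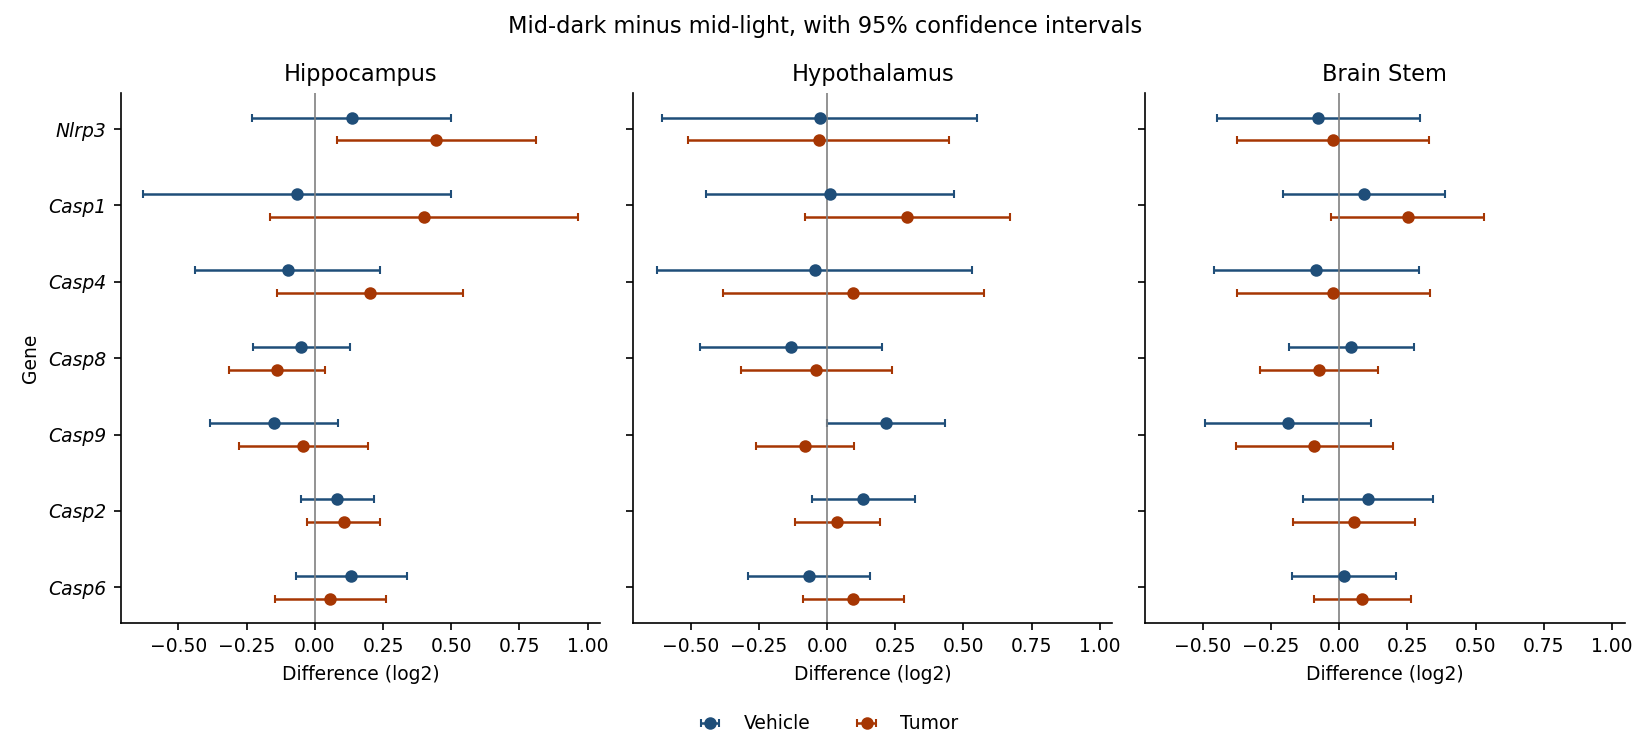
Mid-dark minus mid-light differences (log2, horizontal axis) of the 7 genes in each region in vehicle injected and tumor-bearing mice, with 95% confidence intervals from limma. Casp2 lies right of 0 in all 6 comparisons (0.04 to 0.13), and the interval furthest from 0 is that of Nlrp3 in the hippocampus of tumor-bearing mice (0.08 to 0.81).

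The test that passed was Nlrp3 in the hippocampus of tumor-bearing mice. The difference was 0.44 (interval 0.08 to 0.81, adjusted p = 0.327, exact permutation p = 0.0317), from the values given above, and the groups overlapped through mouse 23 at 4.52. The mid-light group is the same that stood below the vehicle injected mice, so the 2 differences share those samples. In vehicle injected mice Nlrp3 differed by 0.13 (interval -0.23 to 0.50), and the interaction of tumor and time in the hippocampus was 0.31 (interval -0.21 to 0.83, adjusted p = 0.775). Oligodendrocyte markers differed between the same tumor-bearing groups, with summed levels of 17914 to 40993 at mid-dark and 34193 to 45798 at mid-light. Of the 6 endothelial markers, 1 was called higher at mid-dark there. Of the 6 microglia markers, 1 was higher at mid-dark with an unadjusted p under 0.05 and none was called. Their part in the Nlrp3 difference was not tested.

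The mid-dark minus mid-light difference of Casp2 was positive in 6 of 6 comparisons, at 0.04 to 0.13. In the hippocampus of vehicle injected mice the mid-dark values were 8.39, 8.41, 8.50, 8.45 and 8.47. The mid-light values were 8.29, 8.36, 8.33, 8.45 and 8.38, so that mouse 22 of that group lay among the mid-dark mice and the other 4 below them. The difference was 0.08 (interval -0.05 to 0.22, adjusted p = 0.578, exact permutation p = 0.0476). Averaged over regions and tumor status the difference was 0.09 (interval 0.01 to 0.17, adjusted p = 0.151). No member was called in that comparison, against 13.5% of all genes, and Casp2 was the 1 member with an unadjusted p under 0.05, against 25.3%. With only samples of a 260/280 ratio of at least 1.8 it was called (0.11, adjusted p = 0.0310). The differences of Casp8 and Casp9 were negative in 5 of 6 comparisons each, down to -0.14 and -0.19. The positive value of Casp9 was its largest in size, 0.22 in the hypothalamus of vehicle injected mice (interval 0.00015 to 0.43, unadjusted p = 0.0504, adjusted p = 0.711). It rests on the same 3 mid-dark vehicle injected mice as the tumor difference of Casp9 there. The differences of Casp1 were positive in 5 of 6 comparisons. The highest of these, 0.40 in the hippocampus of tumor-bearing mice, was 0.07 (adjusted p = 0.966) without mouse 7. In the comparison over the 3 regions the Casp1, Casp8 and Casp9 intervals included 0 (-0.05 to 0.37, -0.17 to 0.04 and -0.16 to 0.06). In all, 84 exact tests were computed for the members, and 5 gave a p under 0.05 before adjustment. Chance alone would pass a share of up to about 0.05 of such tests. The exact test was not run for the other genes, so no share of the panel stands beside this count.

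No interaction of tumor and time was called for a member or for any other gene within a region (0%), and 1 of the 21 member tests (4.76%), that of Casp9 in the hypothalamus, had an unadjusted p under 0.05, beside 4.25% of all gene tests. Over the 3 regions no member was called, beside 0.13% of the panel, and none had an unadjusted p under 0.05, beside 5.97%.

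The members varied little with one another once region means were removed. Over the 56 samples, which share mice, the highest correlation between members was r = 0.32 (Casp6 with Casp8) and the lowest r = -0.35 (Casp2 with Casp8), and Casp4 and Nlrp3 had r = -0.19. The panel genes most like each member over these samples were Fcer1g and Lcn2 for Casp4 (r = 0.46 for both), Dlg4 (0.51) and Olfml3 (0.47) for Nlrp3, and Pak1 (0.46) and Prkar2b (0.44) for Casp1. Among the others they were Cx3cl1 (r = 0.69) and Map1lc3a (0.64) for Casp9, Sirt1 (0.57) and Ccng2 (0.55) for Casp2, Lamp2 (0.51) and Pdpn (0.50) for Casp8, and Cflar and Itgb5 (0.49 for both) for Casp6. Over the 12 group means, which mostly carry the regions, the genes most like each member included Pik3cb (r = 0.96) for Casp1, Ly6a and Il2rg (0.86 for both) for Casp4, and Lrrc25 (0.77) and Tnfrsf17 (0.75) for Nlrp3. For the others they included Grin2a (r = 0.98) for Casp9, Rpl29 (0.99) and Sirt1 (0.97) for Casp2, Slco2b1 (0.85) and P2rx7 (0.81) for Casp8, and Dlg4 and Dapk1 (0.97 for both) for Casp6. For Casp2, Sirt1 was among the 2 most like genes on both measures. These values are descriptions.

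Few other genes of the pathways were called with the tumor. Of 12 inflammasome genes listed, 6 were on the panel, and none of Pycard (the adaptor), Il1b, Il1a, P2rx7, Tlr4 and Gbp2 was called in any tumor, interaction or time comparison. Of 27 apoptosis genes listed, 24 were on the panel. In the comparison of tumor with vehicle over the 3 regions only Bcl2l1, an inhibitor of mitochondrial apoptosis, was called, 0.09 higher in tumor-bearing mice (adjusted p = 0.0445), and in the hippocampus with times averaged only Fas, a death receptor upstream of Casp8, was 0.46 higher (adjusted p = 0.00763). Between mid-dark and mid-light over the 3 regions, Cycs, which encodes cytochrome c, was 0.17 higher (adjusted p = 0.0179) and Cflar, an inhibitor of Casp8, 0.14 higher (adjusted p = 0.0355) at mid-dark. No apoptosis gene was called within a single region and phase, or within a single region and tumor group.

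Between regions many genes of these lists were called, as over the whole panel. Of the 24 apoptosis genes, 6 were higher and 11 lower in the hippocampus than in the hypothalamus, 7 higher and 13 lower in the hippocampus than in the brain stem, and 12 higher and 4 lower in the hypothalamus than in the brain stem. The smallest p values were those of Parp1, a DNA damage sensor cut by executioner caspases (1.33 higher in the hippocampus than in the hypothalamus), and of Xiap, an inhibitor of Casp9, and Bcl2, whose hippocampus minus hypothalamus values were -0.64 and -0.88. Between hippocampus and brain stem, Parp1 (1.17), Bok (2.11) and Cidea (1.09) led, and between hypothalamus and brain stem Bid (0.68), Cidea (0.73) and Bok (1.07). Of the 6 inflammasome genes, 3 were higher and 2 lower, 3 higher and 3 lower, and 2 higher and 2 lower in these 3 comparisons. Il1b was lower in the hippocampus and in the hypothalamus than in the brain stem (-0.68 and -0.43), as was Tlr4 (-0.30 and -0.23). Pycard was 0.59 higher in the hippocampus than in the brain stem, and Gbp2 was 0.62 lower in the hippocampus than in the hypothalamus (difference -0.62) and 0.32 higher in the hypothalamus than in the brain stem. P2rx7 and Il1a were 0.26 and 0.32 higher in the hippocampus than in the hypothalamus.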

How the data were processed

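The deposited table holds log2 normalized values of 770 genes and 1 row with no gene name, which was left out. Per the methods, the authors made these log2 values in nSolver, subtracting background set by the negative controls and scaling by the geometric means of positive controls and of the CodeSet, and then quantile normalized them in Partek. Under this normalization sample medians were 8.07 to 8.09, so differences are relative to the rest of the panel. Of the 43120 values, 60 equalled the lowest value. Raw counts were not used here, and the depth per sample is unknown. The number of mice limits the precision.

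Groups and mouse numbers came from the labels, and within a region each mouse counted as 1 replicate. Tests used limma 3.58.1 in R 4.3.3 across the panel, and a gene was called at a Benjamini-Hochberg adjusted p under 0.05 within its comparison. Each region had a model of 4 group means. The unadjusted p is the ordinary p of the same model, from each gene's own spread. Intervals and adjusted p use limma's moderated spread, which draws on all genes. An interval can thus leave out 0 where the unadjusted p is not under 0.05. A gene with 1 value throughout a region was not tested there. Comparisons of regions and over the 3 regions used 12 group means with the mouse as a random block (correlation 0.136), because the labels tie the 3 regions to 1 mouse. The 44 residual degrees of freedom of that model count samples, not the 20 mice, also for tumor and time of day. Exact permutation tests over mice were two-sided (Python 3.11.15, numpy 2.4.6). The models were tested on simulated data. Alternatives were a filter on low values, a pseudocount, subtracted medians, quantile normalization within regions, ordinary p, only the groups compared, vehicle injected mice alone, RNA purity as a covariate or a filter, no block, and each mouse left out.

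The 7 genes, the lists and the tests were chosen with earlier results of these data known. The genes named are the members, the 2 panel genes with the highest Pearson r to each on each of 2 measures, and pathway genes called in a comparison (between regions, up to 3 per list with the smallest p). The 6 inflammasome genes are also named where not called, and were added to the naming rule after their values were seen. Some genes that the rule names are not reported here. Promoters are from RefSeq (GRCm38.p6), and all 7 members were matched by symbol. Comparisons with times averaged, and of tumor differences between regions, were added after the data were seen.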

Additional observations from a re-analysis of the deposited data

Results flagged for a closer look

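Of 77 groups of 4 or 5 mice tested for a value far from the others, 3 had one, where chance gives about 1 in 20. Casp1 in the brain stem of tumor-bearing mice at mid-dark was 6.29 in mouse 19 and 6.79 to 6.96 in the others, in a group with 3 of 5 samples under a 260/280 ratio of 1.8. Casp2 in the brain stem of vehicle injected mice at mid-light was 8.42 in mouse 2 and 7.73 to 7.93 in the others. That sample of mouse 2, at a 260/280 ratio of 1.72, was the only one of its group under 1.8. The purity filter left it out. Casp8 in the hypothalamus of tumor-bearing mice at mid-dark was 6.05 in mouse 11 and 6.51 to 6.66 in the others.

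In 3 results the tumor difference itself differed by an unadjusted p under 0.05, and none passed adjustment over the panel. The tumor difference of Casp9 in the hypothalamus was lower at mid-dark than at mid-light by an interaction of -0.30 (adjusted p = 1). The tumor difference of Nlrp3 was lower in the hippocampus than in the brain stem (-0.40, adjusted p = 0.9996, and -0.24 without mouse 28) and lower in the hypothalamus than in the brain stem (-0.48, adjusted p = 0.999).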

How the results depend on the processing

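The number of members called was recomputed for 27 comparisons, and 21 of these kept their count under every alternative run. The counts between regions were 5 and ranged from 4 to 6 for hippocampus minus brain stem and from 4 to 5 for the other pairs. With only samples of a 260/280 ratio of at least 1.8, the count for mid-dark minus mid-light over the 3 regions went from 0 to 1 (Casp2). Leaving out 1 mouse at a time, the count ranged from 0 to 1 for tumor minus vehicle over the 3 regions and from 0 to 1 for tumor minus vehicle in the hypothalamus with times averaged, in both from Casp4 without mouse 29. Of 38 differences of single members, 29 kept their direction and their side of the threshold under every alternative run, the calls lost or gained in the others are given in the report, and 1 changed sign, that of Casp4 in the brain stem at mid-dark (tumor minus vehicle 0.23), at -0.058 with the purity filter. Without the mouse as a replicate block, 5 members were again called in each region comparison and 0 over the 3 regions. There the adjusted p for tumor minus vehicle was 0.0504 for Casp4 (0.27) and 0.0510 for Nlrp3 (-0.28). A filter that kept genes whose mean log2 value reached 5 removed Casp4 and Nlrp3, which then had no test. A pseudocount of 16, which by construction shrinks differences at low values, brought tumor differences of Casp4 and Nlrp3 nearer 0, with no change of call. With times averaged they were 0.14, 0.24 and 0.12 for Casp4 in hippocampus, hypothalamus and brain stem, and -0.25 and -0.28 for Nlrp3 in hippocampus and hypothalamus. Between regions it gave -0.15 for Casp4 (hypothalamus minus brain stem) and 0.19 for Nlrp3 (hippocampus minus brain stem). Nlrp3 between mid-dark and mid-light in the hippocampus of tumor-bearing mice was 0.29, and its tumor difference between regions was -0.25 (hippocampus minus brain stem) and -0.28 (hypothalamus minus brain stem). Casp4 and Nlrp3 have low signals, where background subtraction weighs most. The cause of the other changes was not tested.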
